A study of Homo sapiens with 49 samples.

Results

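The genes described here are 49 genes that act in the G2 phase of the cell cycle and in mitosis, measured in 6 human lines derived from diffuse large B-cell lymphoma, a cancer of mature B cells. The genes were taken from a named list, and each had to have at least 1 array probe set annotated to it alone. Where a gene had several, the brightest on average across the 49 arrays stood for it. All 49 of 49 listed genes met this rule, among 19775 genes measured in this way.

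The lines U2932, RIVA, FARAGE, OCI-Ly7, SU-DHL-5 and NU-DHL-1 were left untreated or exposed to doxorubicin, an anthracycline drug that blocks topoisomerase II and breaks DNA, and messenger RNA was measured on Affymetrix arrays as log2 intensity. Untreated arrays were available for 6 lines at 0 h, 6 at 2 h, 6 at 12 h and 3 at 48 h (U2932, RIVA and OCI-Ly7). The dose of 0.00061 µg/mL had the same 6, 6 and 3 lines at 2, 12 and 48 h. The dose of 2.5 µg/mL had 6 lines at 2 h, 5 at 12 h, where SU-DHL-5 was missing, and 2 at 48 h, U2932 and RIVA. A line was measured once at a given dose and time, so the lines were the replicates, and p-values measure the spread between them.

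A dividing cell copies its DNA, passes through G2 and then builds a spindle that pulls the copied chromosomes apart. Cyclins bind and activate the kinase CDK1 to start mitosis, kinesins move along the microtubules of the spindle, and the kinetochore ties each chromosome to them. The spindle checkpoint holds anaphase back until every kinetochore is attached, after which the anaphase-promoting complex marks securin and the cyclins for destruction. Condensin compacts the chromosomes, and the central spindle guides the cut between the daughter cells. Most of these genes are transcribed mainly in G2 and M, from promoters that carry a short element called CHR (cell cycle genes homology region), bound by the MuvB complex together with B-MYB and FOXM1 or, in its repressing DREAM form, with E2F4 and p130.

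Letter matches to this element were common in the promoters of the genes. RefSeq start-site windows of assembly GRCh38.p14, from 250 bases before to 50 after each start, were matched for 42 of the 49 genes. AURKA, BIRC5, BUB3, FOXM1, TPX2, TTK and UBE2C had no entry. The letters TTTGAA or TTTAAA (CHR), read on both strands so that TTCAAA also counts, were present in 36 of the 42 (85.7%), against 24.0% of the 15384 genes with a window of the same length. A gene can have several windows, and among genes with only 1 the shares were 30 of 35 (85.7%) and 18.8%. The letters CCAAT, read as ATTGG on the other strand and the site of the factor NF-Y, were present in 76.2% and 41.7%, and a CHR and a CCAAT match can share no more than an end base. The 4 windows with the smallest p at 12 h among genes with a CHR match, and the 2 windows whose genes differed least at 12 h, are printed 5′ to 3′ along the gene, with CHR and CCAAT matches in capitals, to show the element in genes with a large and a small response.
NCAPH, chr2:96335516-96335815, plus strand: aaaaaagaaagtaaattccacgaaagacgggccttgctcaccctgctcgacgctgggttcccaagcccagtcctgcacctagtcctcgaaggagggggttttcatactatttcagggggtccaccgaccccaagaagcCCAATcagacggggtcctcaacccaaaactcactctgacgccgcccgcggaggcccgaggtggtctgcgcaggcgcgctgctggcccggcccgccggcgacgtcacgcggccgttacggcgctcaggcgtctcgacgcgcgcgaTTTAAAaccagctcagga
ANLN, chr7:36389612-36389911, plus strand: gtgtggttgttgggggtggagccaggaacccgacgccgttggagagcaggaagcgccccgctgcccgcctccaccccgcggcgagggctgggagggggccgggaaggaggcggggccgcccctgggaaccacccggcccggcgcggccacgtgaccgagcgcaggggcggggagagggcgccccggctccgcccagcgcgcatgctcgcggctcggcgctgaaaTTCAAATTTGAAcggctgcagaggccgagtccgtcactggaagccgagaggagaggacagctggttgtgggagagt
DLGAP5, chr14:55191536-55191835, minus strand: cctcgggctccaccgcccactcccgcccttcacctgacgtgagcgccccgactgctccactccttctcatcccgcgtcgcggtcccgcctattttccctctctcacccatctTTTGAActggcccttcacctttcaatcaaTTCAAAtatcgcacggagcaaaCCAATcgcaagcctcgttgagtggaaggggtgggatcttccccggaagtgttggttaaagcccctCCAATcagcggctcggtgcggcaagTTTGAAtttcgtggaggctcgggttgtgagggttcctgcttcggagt
ECT2, chr3:172750476-172750775, plus strand: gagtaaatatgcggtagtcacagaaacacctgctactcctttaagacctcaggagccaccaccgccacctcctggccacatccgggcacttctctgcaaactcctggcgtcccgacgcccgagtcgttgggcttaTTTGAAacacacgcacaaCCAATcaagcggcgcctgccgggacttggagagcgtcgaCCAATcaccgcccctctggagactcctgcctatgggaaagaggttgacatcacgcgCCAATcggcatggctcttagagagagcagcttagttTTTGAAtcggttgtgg
NCAPD2, chr12:6493852-6494151, plus strand: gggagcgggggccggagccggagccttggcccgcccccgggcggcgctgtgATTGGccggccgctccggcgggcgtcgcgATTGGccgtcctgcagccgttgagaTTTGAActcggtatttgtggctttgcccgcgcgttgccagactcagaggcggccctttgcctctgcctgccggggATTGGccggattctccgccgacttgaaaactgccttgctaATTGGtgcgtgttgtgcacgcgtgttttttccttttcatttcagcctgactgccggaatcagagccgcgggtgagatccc
NUSAP1, chr15:41332631-41332930, plus strand: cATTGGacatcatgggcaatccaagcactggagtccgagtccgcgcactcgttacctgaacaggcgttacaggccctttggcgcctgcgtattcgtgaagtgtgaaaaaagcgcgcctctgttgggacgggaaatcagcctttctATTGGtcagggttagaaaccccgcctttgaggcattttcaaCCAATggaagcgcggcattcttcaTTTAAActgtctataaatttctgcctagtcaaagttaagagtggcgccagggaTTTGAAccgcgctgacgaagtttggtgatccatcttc

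In NCAPH, a condensin subunit, the CHR match began 32 bases after the start, and in ANLN, the scaffold of the cytokinetic ring, 2 abutting matches began at positions -26 and -20 (counted from 0 at the start). NCAPD2, another condensin subunit, held its CHR match at position -145, farther from the start than most genes. NUSAP1, a microtubule-binding protein of the spindle, held 2 matches, at positions -40 and 13, and its mean difference at 12 h was near 0 (-0.08) with 1.20 in NU-DHL-1 and values below 0 in the other 4 lines. A match in the 50 bases on either side of the start was present in 31 of 42 genes (73.8%), against 7.8% of all genes tested. For ECT2 a different window was also listed, and the one printed is the first listed that holds a CHR match.

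**Figure D1:**
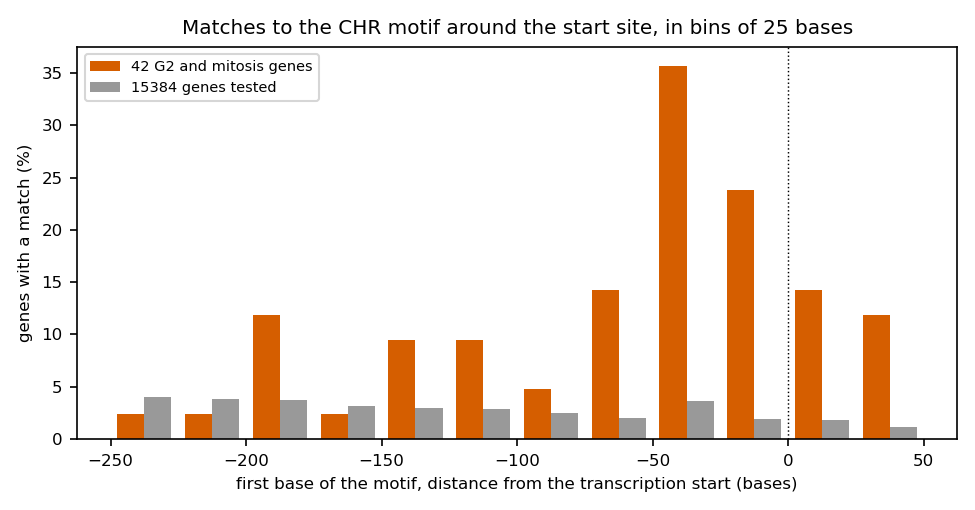
Share of genes (y axis, percent) with a CHR match whose first base lies in each bin of 25 bases along the promoter window (x axis, distance from the transcription start in bases), for the 42 G2 and mitosis genes (orange) and all 15384 genes tested (grey). The bin from 50 to 25 bases before the start holds a match in 35.7% of the G2 and mitosis genes and 3.6% of all genes.

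The presence of a match did not separate the strongly from the weakly responding genes. The median log2 difference at 12 h of the high dose was -1.56 over the 36 genes with a CHR match and -1.44 over the 6 without one (AURKB, BUB1, CCNA2, CKAP2, NEK2 and SGO1). With a CCAAT match the median was -1.49 over 32 genes, and without one it was -2.27 over 10. These medians are descriptions, and a match of letters is not evidence of binding.

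In untreated cells the genes differed more between lines than most genes did. Over the means of each line's untreated arrays at 0, 2 and 12 h, the median SD between the 6 lines was 0.50 log2 units for the 49 genes and 0.28 for all genes. The range between the highest and the lowest line exceeded 1 log2 unit for 37 of the 49, and the median SD within a line was 0.13. NU-DHL-1 was the lowest line for 36 genes and lay a median of 0.54 log2 units under the mean of the lines (-0.54). OCI-Ly7 was the highest line for 23 genes, with a median deviation of 0.44. NDC80, a kinetochore protein that grips microtubules, showed one of the wider spreads, at 8.72 ± 0.25 in NU-DHL-1, 9.76 ± 0.06 in SU-DHL-5, 10.05 ± 0.26 in U2932, 10.08 ± 0.04 in FARAGE, 10.44 ± 0.10 in RIVA and 10.72 ± 0.16 in OCI-Ly7 (mean ± SD of 3 arrays at different times). U2932 and FARAGE did not differ beyond this spread, while NU-DHL-1 stood clearly below the rest. As markers of B cells, MS4A1, CD79A, CD79B and PAX5 were above the median gene on 21 of 21 untreated arrays. So were HBB and COL1A1, of red cells and fibroblasts, at lower levels, and DCN and EPCAM on 8, while CD3D, CD14 and KRT8 were on 0; their part in the results was not tested.

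In culture without drug, the members of some lines shifted together. After 12 h all 49 genes were higher than at 0 h in U2932 (median 0.32), and 48 of 49 were lower in NU-DHL-1 (median -0.44). The other 4 lines had medians from -0.00 in OCI-Ly7 to 0.13 in FARAGE, and in OCI-Ly7 and RIVA the members went both ways, with 25 and 21 of 49 below 0. Each of these values rests on 1 array per line and time, so a difference between lines cannot be told apart from a difference between single cultures or arrays. Over the lines the opposite movements cancelled, with 1 member called higher at 12 h, NCAPD2 (0.37 ± 0.05, adjusted p = 0.0224), where 0.0152% of all genes were called higher. At 2 h 1 member was called lower, the checkpoint kinase BUB1 (-0.23 ± 0.04, adjusted p = 0.0286), where 0.45% of all genes were called lower. Both calls ended under other settings of the test.

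**Figure D2:**
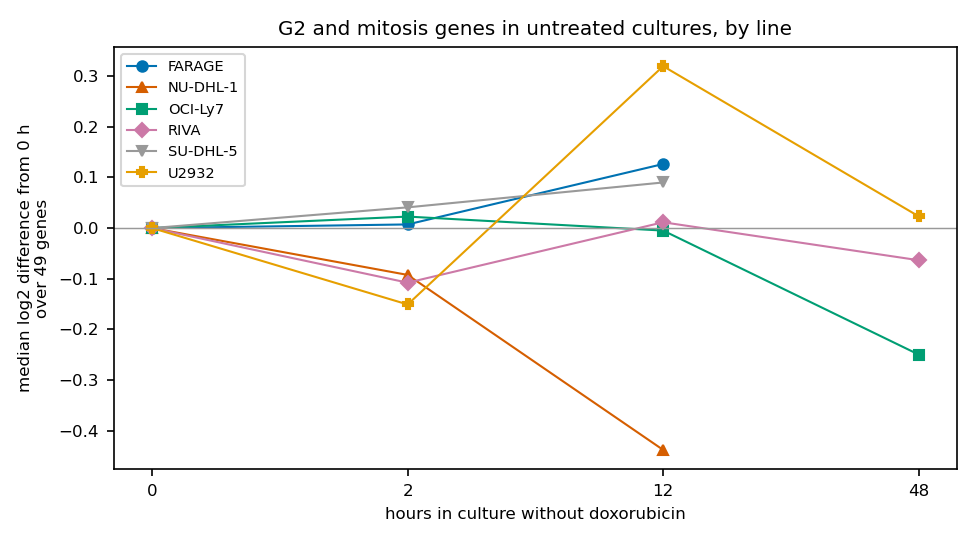
Median log2 difference from the untreated 0 h array (y axis) over the 49 genes, against hours in culture without doxorubicin (x axis), 1 line per cell line. U2932 and NU-DHL-1 move in opposite directions at 12 h, to 0.32 and -0.44.

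By 48 h without drug no member was called, and the largest mean differences were those of 3 genes with low values in OCI-Ly7 and RIVA. Cyclin B1 (CCNB1) stood at 11.76, 11.74 and 11.20 at 0 h and at 9.60, 10.58 and 11.27 by 48 h, given for OCI-Ly7, then RIVA, then U2932. For CCNB1 the mean difference was -1.08 ± 0.35 (adjusted p = 0.326), and U2932 was the line that did not share it (0.07). CDC20, the activator of the anaphase-promoting complex, had differences of -1.62, -1.10 and -0.21 in the same order, and SGO1, which protects sister chromatid cohesion, had -1.21, -1.92 and 0.07. An unadjusted p under 0.05 was found for 7 of 49 members (14.3%) and for 12.9% of all genes, so the count was near the background. When U2932 was left out, 3 members were called, with 139 of all 19775 genes called lower and 78 higher. The untreated 48 h arrays are the controls of the 48 h comparisons below, so these differences enter them.

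After 2 h of 2.5 µg/mL, 9 members were lower, 1 was higher and 39 were not called. Among all genes 6.38% were called lower and 4.03% higher. The median log2 difference of the members was -0.07, that of all genes 0.02, and 39 members lay below 0. The called members belonged mostly to the kinesins (5 of 8) and to the kinetochore (2 of 6). By the chosen probe sets, no condensin, anaphase, spindle assembly or mitotic kinase gene was called at this time. Dimmer probe sets gave lower means for AURKB (-1.01), SMC4 (-0.79 for the dimmest) and CKAP2 (-0.42 and -0.45), and were not tested singly. With the mean over probe sets, 13 members and 946 of all genes were called lower, while 35 members lay below 0. The roles called thus rest on the probe set rule.

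KIF20A, a kinesin of the central spindle, differed by -0.52 in FARAGE, -0.54 in NU-DHL-1, -0.50 in OCI-Ly7, -0.70 for RIVA, -0.74 for SU-DHL-5 and -0.32 in U2932. It fell by 0.55 ± 0.06 on the log2 scale (SE, adjusted p = 1.34e-04), to 68.1% of the untreated intensity. ANLN differed by -0.54, -0.57, -0.47, -0.45, -0.54 and -0.45 in the same order of lines, and its mean was -0.50 ± 0.05 (adjusted p = 5.07e-05). The 6 lines gave ANLN nearly the same value, and each was lower than its own control.

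BUB1B, the checkpoint kinase BUBR1, differed by -0.66, -0.36, -0.29, -0.44, -0.27 and -0.38 (mean -0.40 ± 0.05, adjusted p = 2.06e-04). CENPA, the histone that marks the centromere, differed by -0.41, -0.56, -0.35, -0.32, -0.35 and -0.27 (mean -0.38 ± 0.05, adjusted p = 5.42e-04). KIF23, a second motor of the central spindle, differed by -0.44, -0.31, -0.27, -0.30, -0.46 and -0.37 (mean -0.36 ± 0.05, adjusted p = 8.36e-04). For each of these the 6 lines lay on the same side of 0, yet the treated and untreated levels overlapped between lines, since the lines differed by more than the drug effect. A dimmer KIF23 probe set had a mean of -1.33, so the size of the fall of KIF23 depends on the probe set.

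NDC80 was lower by a mean of -0.27 ± 0.05 (adjusted p = 0.00371), from -0.43 in NU-DHL-1 to -0.13 in U2932. KIF18A, which sets the length of kinetochore microtubules, had -0.27 ± 0.07 (adjusted p = 0.0324) and was close to 0 in NU-DHL-1 (-0.00), against -0.61 in FARAGE. KIF15, a motor that helps hold the spindle poles apart, had -0.22 ± 0.05 (adjusted p = 0.0208), from -0.35 in NU-DHL-1 to -0.08 in U2932. KIF11, the main motor that separates the poles, had -0.17 ± 0.04 (adjusted p = 0.024), from -0.33 in U2932 to -0.03 in NU-DHL-1. The calls of KIF11, KIF15 and KIF18A ended without the variance trend. They also ended on leaving out 1 line: FARAGE, RIVA, SU-DHL-5 or U2932 for KIF11, NU-DHL-1, OCI-Ly7 or RIVA for KIF15, and any but NU-DHL-1 for KIF18A. The call of KIF11 ended against the mean untreated control as well.

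CDK1, the kinase of mitotic entry, was the member called higher, by 0.11 ± 0.03 (adjusted p = 0.035), with 0.12, 0.17, 0.04, 0.18, 0.13 and 0.02 in the lines in the order above. Its 3 other probe sets had means of 0.01, -0.03 and 0.16. When arrays were scaled to the added poly-A control RNAs, which were 0.27 brighter on treated arrays at 2 h, CDK1 turned to -0.16. Its call also ended without the variance trend, with centred arrays, hybridization scaling, the mean over probe sets or the mean untreated control, and when any line but U2932 was left out. Among members not called, CENPE was the lowest at -0.19 and NCAPG the highest at 0.14. Without the line in the model, or with all arrays fitted jointly, 0 members were called at 2 h.

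After 12 h of 2.5 µg/mL, 35 of the 49 members fell, 32 of them by at least 2-fold, 0 rose and 14 were not called. Among all genes 14.7% were called lower and 18.2% higher. The median of the members was -1.46 and that of all genes 0.20. Every member had a mean below 0, and 36 were lower in each of the 5 lines, a pattern shown by 15.3% of all genes. Because the arrays were scaled to a common distribution of intensities, these are differences relative to the other genes. The poly-A controls were 1.59 brighter on treated arrays at this time and the hybridization controls 0.66. Scaled to the poly-A controls, 49 members were called lower, as were 18745 of all 19775 genes, and the median was -3.05 for the members and -1.40 for all genes. Scaled to the hybridization controls, 47 members and 6839 of all genes were called lower, with medians of -2.12 and -0.46. In bulk RNA, fewer cells in G2 and mitosis and less of each messenger per cell cannot be told apart.

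**Figure D3:**
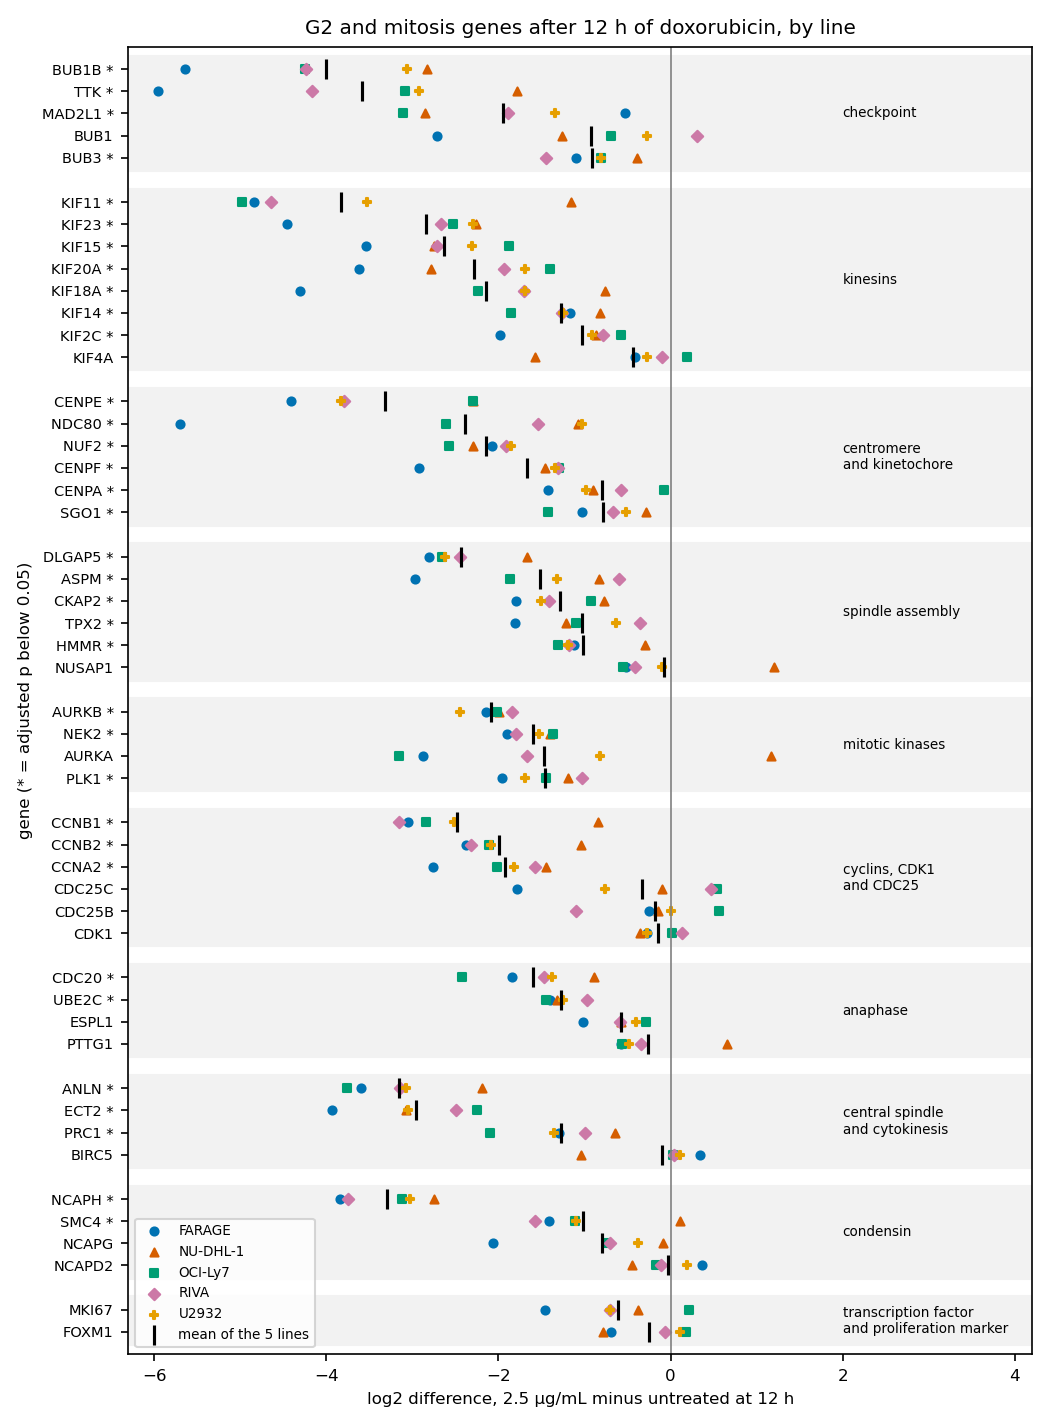
Log2 difference between 2.5 µg/mL and untreated at 12 h (x axis) for each of the 49 genes (y axis), grouped by role; each symbol is 1 of 5 lines, the black bar is their mean, and an asterisk marks an adjusted p below 0.05. BUB1B has the largest mean, -4.00, and NCAPD2 the smallest, -0.03, and NU-DHL-1 (triangles) lies above 0 for NUSAP1, AURKA, PTTG1 and SMC4.

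Of the 5 checkpoint genes 4 fell. BUB1B stood at 11.56, 10.68, 11.65, 11.75 and 11.58 in untreated FARAGE, NU-DHL-1, OCI-Ly7, RIVA and U2932, and at 5.91, 7.85, 7.41, 7.52 and 8.52 after the drug. The groups did not overlap, and BUB1B fell by 4.00 ± 0.39 on the log2 scale (adjusted p = 0.00143), or 16.01-fold. TTK, the kinase MPS1 that starts checkpoint signalling, differed by -5.95, -1.79, -3.08, -4.17 and -2.92 (mean -3.58 ± 0.53, adjusted p = 0.00389). After the drug TTK stood at 4.25 in FARAGE and 4.50 in RIVA, under the array medians of 4.84 to 5.04, so the size of its fall there is uncertain. MAD2L1, which binds CDC20 to hold it inactive, was lower by 1.94 ± 0.36 (-1.94, adjusted p = 0.00817) and BUB3, the partner of BUB1 and BUBR1, by less (-0.91 ± 0.16, adjusted p = 0.00719). BUB1 was not called (-0.92 ± 0.40, adjusted p = 0.101), with -2.71 in FARAGE and 0.31 in RIVA. A dimmer BUB1 probe set was lower in all 5 lines (mean -1.19), and the remaining ones had means from -0.48 to 0.40.

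Of the 8 kinesins 7 fell. KIF15 differed by -3.54, -2.74, -1.88, -2.71 and -2.31 in FARAGE, NU-DHL-1, OCI-Ly7, RIVA and U2932 (mean -2.64 ± 0.28, adjusted p = 0.00152), and KIF23 by -4.46, -2.25, -2.53, -2.66 and -2.29 (mean -2.84 ± 0.35, adjusted p = 0.00221). KIF11 had the largest mean of the family, at -3.83 ± 0.54. Its level after the drug was 5.45 to 5.93 in 4 lines and 8.12 in NU-DHL-1. KIF20A (-2.29), KIF18A (-2.14), KIF14 (-1.27) and KIF2C, which takes microtubules apart (-1.02), fell as well. In treated FARAGE, KIF23 stood at 4.78 and KIF18A at 4.40, under the array medians of 4.84 to 5.04. The size of their falls in that line is uncertain. KIF4A, a chromosome-bound motor, was the kinesin not called (-0.43 ± 0.29, adjusted p = 0.246).

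All 6 centromere and kinetochore genes fell. NUF2, which pairs with NDC80, differed by -2.08, -2.29, -2.57, -1.92 and -1.85 (mean -2.14 ± 0.22, adjusted p = 0.00143), one of the most even responses over the lines. CENPE, a kinesin at the kinetochore, differed by -4.41, -2.29, -2.29, -3.80 and -3.83 (mean -3.32 ± 0.36, adjusted p = 0.00171). NDC80 ranged from -5.70 in FARAGE to -1.02 in U2932 around a mean of -2.39, and its level in treated FARAGE, 4.42, was likewise under the array median. CENPF (-1.66), CENPA (-0.79) and SGO1 (-0.79) had smaller falls. A second probe set of CENPF gave -2.80, so the size of its fall depends on the probe set.

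Of the 6 spindle assembly genes 5 fell. DLGAP5, a protein that stabilises microtubules near chromosomes, differed by -2.80, -1.66, -2.66, -2.45 and -2.62 (mean -2.44 ± 0.23, adjusted p = 0.00139). HMMR, a spindle pole protein, differed by -1.13, -0.30, -1.31, -1.18 and -1.19 (mean -1.02 ± 0.18, adjusted p = 0.00719), and CKAP2, another microtubule protein, by -1.79, -0.77, -0.92, -1.42 and -1.51 (mean -1.28 ± 0.23, adjusted p = 0.00719). ASPM (-1.52) and TPX2, the activator of Aurora A (-1.02), fell too. NUSAP1 was not called (-0.08 ± 0.25, adjusted p = 0.814). It was higher in NU-DHL-1 by 1.20 and lower in the other 4 lines by -0.56 to -0.10, and its second probe set gave a mean of 0.03.

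Of the 4 mitotic kinases 3 fell, and the 2 Aurora kinases differed in how even they were. AURKB, of the chromosomal passenger complex, differed by -2.14, -1.99, -2.01, -1.84 and -2.45 (mean -2.09 ± 0.21, adjusted p = 0.00143). NEK2, a centrosome kinase, differed by -1.90, -1.40, -1.37, -1.79 and -1.52 (mean -1.60 ± 0.20, adjusted p = 0.00233), and PLK1, the kinase that drives mitotic entry and exit, had a mean of -1.46 ± 0.21 (adjusted p = 0.00348). AURKA, the spindle pole kinase, differed by -2.88, 1.17, -3.15, -1.67 and -0.81 and was not called (mean -1.47 ± 0.57, adjusted p = 0.074). Its second bright probe set showed the same split, from -3.20 to 1.01.

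The 3 cyclins fell, and CDK1 and both CDC25 genes were not called. CCNB2 differed by -2.37, -1.05, -2.11, -2.32 and -2.09 (mean -1.99 ± 0.23, adjusted p = 0.00198). CCNA2, the cyclin of S phase and G2, differed by -2.76, -1.44, -2.02, -1.57 and -1.82 (mean -1.92 ± 0.23, adjusted p = 0.00207). CCNB1 went from 11.68, 10.80, 11.58, 11.78 and 11.60 to 8.64, 9.96, 8.74, 8.63 and 9.09, a mean of -2.48 ± 0.33 (adjusted p = 0.00293), and NU-DHL-1 had the smallest difference (-0.84).

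CDK1 stood at 11.96, 10.92, 11.89, 11.67 and 11.45 in the untreated lines and at 11.69, 10.57, 11.91, 11.80 and 11.17 after the drug (mean -0.15 ± 0.13, adjusted p = 0.371). Its 3 dimmer probe sets were lower in 5 of 5 lines, with means of -0.60, -0.66 and -0.99, so the probe sets of CDK1 disagree on the size. The phosphatases CDC25B (-0.18 ± 0.26, adjusted p = 0.573) and CDC25C (-0.33 ± 0.36, adjusted p = 0.474), which activate CDK1, were not called either. CDC25C ranged from -1.79 in FARAGE to 0.54 in OCI-Ly7. A dimmer CDC25C probe set was lower in 5 of 5 lines (mean -1.06) and the dimmest had a mean of 0.30, so its probe sets disagree.

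**Figure D4:**
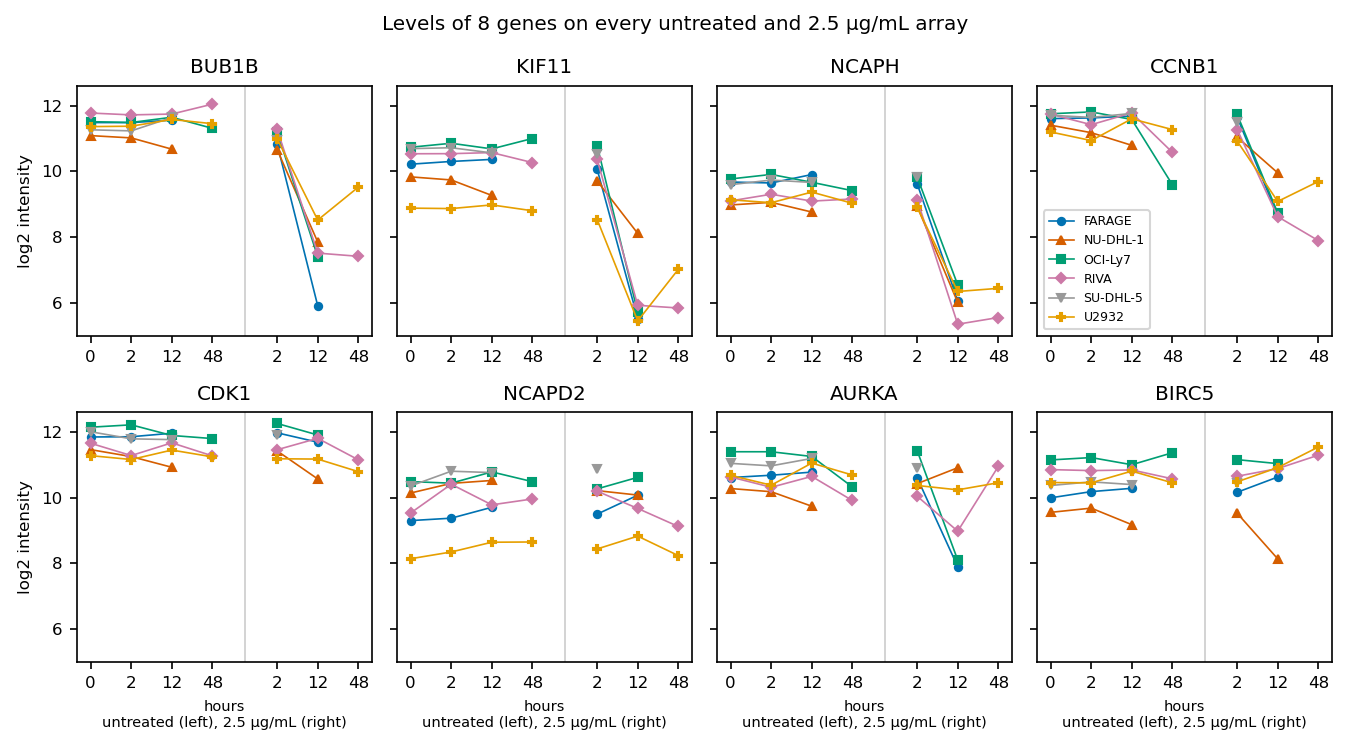
Log2 intensity (y axis) of 8 genes on every untreated (left of the grey bar) and 2.5 µg/mL (right) array, by hours (x axis) and line. BUB1B, KIF11, NCAPH and CCNB1 drop at 12 h, where CDK1, NCAPD2 and, outside NU-DHL-1, BIRC5 have means or lines near the untreated level and AURKA splits by line. At 48 h BIRC5 lies above its control in RIVA and U2932.

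Of the anaphase genes, both parts of the ubiquitin machinery fell. UBE2C, the ubiquitin-conjugating enzyme of the anaphase-promoting complex, differed by -1.40, -1.32, -1.44, -0.97 and -1.25 (mean -1.28 ± 0.14, adjusted p = 0.00184). CDC20 differed by -1.84, -0.89, -2.42, -1.47 and -1.38 (mean -1.60 ± 0.24, adjusted p = 0.00427). Separase, which cuts cohesin, and its inhibitor securin were not called. ESPL1, separase, was lower in 5 of 5 lines at -0.57 ± 0.19 (adjusted p = 0.0524), and PTTG1, securin, had -0.26 ± 0.19 (adjusted p = 0.274) with 0.65 in NU-DHL-1. The probe sets of PTTG1, CENPA and FOXM1 carry the platform's mark for probes that also match other transcripts, so their values may hold signal of related sequences.

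Of the 4 central spindle and cytokinesis genes 3 fell. ANLN stood at 9.88, 7.76, 9.60, 9.85 and 9.37 in the untreated lines and at 6.28, 5.57, 5.84, 6.70 and 6.29 after the drug (mean -3.15 ± 0.28, adjusted p = 0.00107), with no overlap of the groups. ECT2, the exchange factor that activates RhoA at the cleavage plane, differed by -3.93, -3.07, -2.25, -2.496 and -3.04 (mean -2.96 ± 0.28, adjusted p = 0.00139), and PRC1, which bundles the central spindle, by a mean of -1.28. BIRC5, survivin, was not called (-0.10 ± 0.23, adjusted p = 0.725). It was lower by 1.04 in NU-DHL-1 (-1.04) and between 0.03 and 0.34 in the other 4 lines, the reverse of the pattern of NUSAP1, PTTG1 and AURKA. A dimmer BIRC5 probe set had a mean of 0.97.

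Of the 4 condensin subunits 2 fell. NCAPH stood at 9.91, 8.77, 9.67, 9.10 and 9.37 in the untreated lines and at 6.07, 6.02, 6.55, 5.35 and 6.35 after the drug, and its mean of -3.29 ± 0.25 had the smallest adjusted p of all members (0.00102). SMC4, the ATPase subunit shared by both condensins, differed by -1.41, 0.12, -1.10, -1.57 and -1.10 (mean -1.01 ± 0.24, adjusted p = 0.0185). After the drug SMC4 lay between 10.43 and 10.79 in all 5 lines, and untreated NU-DHL-1 was already at 10.32. NCAPG (-0.80 ± 0.28, adjusted p = 0.0602) and NCAPD2 (-0.03 ± 0.20, adjusted p = 0.90) were not called. NCAPH, NCAPG and NCAPD2 belong to the same condensin I complex.

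Neither FOXM1, the forkhead factor that drives G2 genes, nor MKI67, the proliferation marker Ki-67, was called at 12 h. FOXM1 differed by -0.69, -0.78, 0.18, -0.07 and 0.10 (mean -0.25 ± 0.23, adjusted p = 0.397). MKI67 differed by -1.46, -0.38, 0.21, -0.71 and -0.71 (mean -0.61 ± 0.25, adjusted p = 0.0912). The 4 probe sets of MKI67 ranged from 0.04 to -1.99, so its value depends on the probe set.

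The size of the response differed by line. The median over the 49 members was -1.95 in FARAGE, -1.44 in OCI-Ly7, -1.42 in RIVA, -1.32 in U2932 and -1.04 in NU-DHL-1, and all genes had medians from 0.04 in NU-DHL-1 to 0.26 in FARAGE. Differences below -1 were seen for 40 members in FARAGE and 25 in NU-DHL-1, against 17.0% and 10.4% of all genes. Across the members, the lines' differences correlated with r from 0.48 (NU-DHL-1 and OCI-Ly7) to 0.91 (RIVA and U2932), a description over 49 genes that share the same arrays. NU-DHL-1 also had the lowest untreated level for most members, and the part of this in its smaller differences was not tested. The untreated 12 h arrays are the controls of these differences. Against 0 h their member medians were -0.44 in NU-DHL-1 and 0.32 in U2932. Such shifts of single control arrays enter the order of the lines, and their part was not tested. Leaving out OCI-Ly7 gave 29 called members and leaving out NU-DHL-1 gave 39. The shares of all genes called in these fits are not given here.

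The 2 h and 12 h effects were set against each other within each line. The effect was lower at 12 h than at 2 h for 35 of 49 members, against 12.6% of all genes, with a median change of -1.30. BUB1B changed by -3.57 and KIF11 by -3.66 between the 2 times. For CENPA, called lower at 2 h, the change to 12 h was not called (-0.41 ± 0.25, adjusted p = 0.234). At 12 h the high dose could also be compared with the low dose, which uses other control arrays: 36 members were lower, against 14.3% of all genes.

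**Figure D5:**
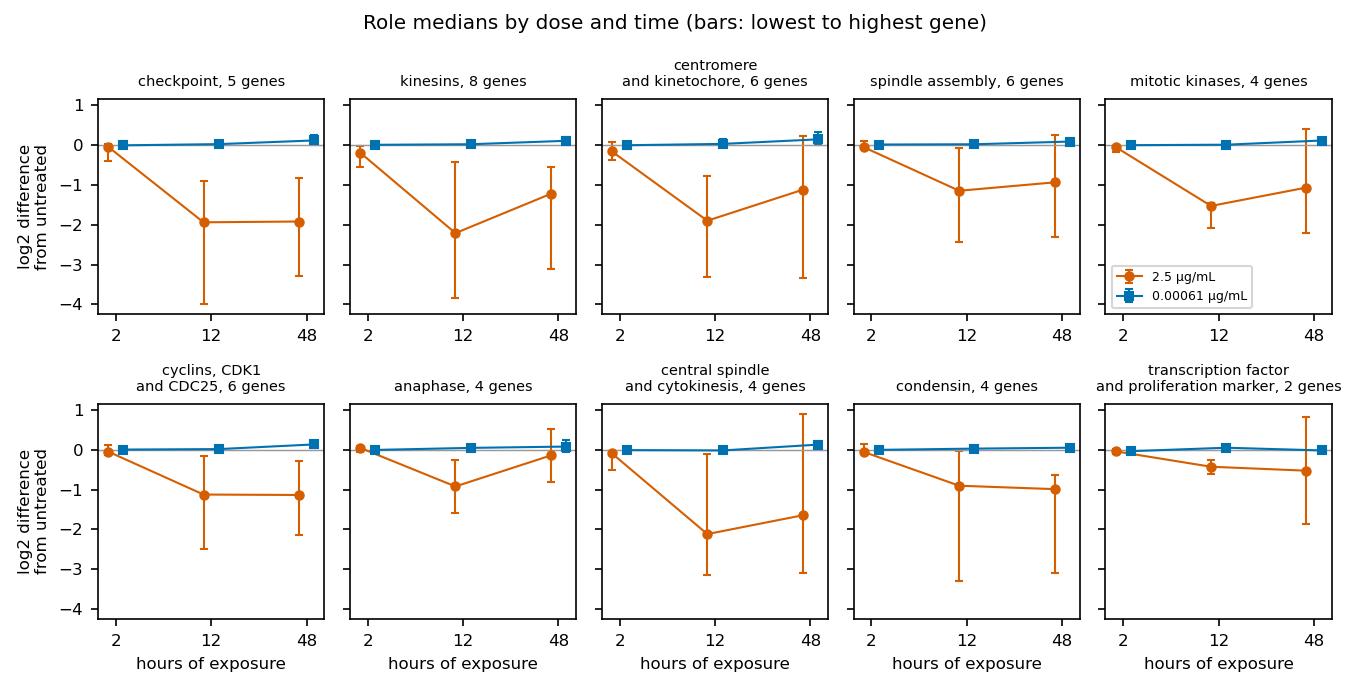
Median log2 difference from untreated (y axis) over the genes of each role at 2, 12 and 48 h (x axis, unequal spacing), for 2.5 µg/mL (orange circles) and 0.00061 µg/mL (blue squares); bars run from the lowest to the highest gene. At 2.5 µg/mL and 12 h the medians run from -2.21 for kinesins to -0.43 for FOXM1 and MKI67, and at 0.00061 µg/mL they stay near 0. The lines differ between times, with 6, 5 and 2 lines at 2.5 µg/mL and 6, 6 and 3 at 0.00061 µg/mL.

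After 48 h of 2.5 µg/mL, in RIVA and U2932, 14 members were lower, 0 higher and 35 not called, while 8.28% of all genes were called lower and 5.66% higher. With 2 lines the fit has 1 residual degree of freedom and draws its error mostly from the other genes, and 0 members were called when the variances were not allowed to follow the expression level or the line was left out of the model. The median was -1.06, with -1.51 in RIVA and -0.62 in U2932, and that of all genes 0.17. The poly-A controls were 2.89 brighter on the treated arrays.

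CENPE stood at 8.95 and 8.63 untreated and at 4.64 and 6.26 with the drug in RIVA and U2932 (mean -3.34 ± 0.58, adjusted p = 0.00524). Its treated level in RIVA was under the array medians of 4.84 to 5.04, so the size of its fall there is uncertain. NCAPH differed by -3.61 and -2.59 (mean -3.10 ± 0.55, adjusted p = 0.00563) and ECT2 by -3.69 and -2.49 (mean -3.09 ± 0.56, adjusted p = 0.00606). BUB1B differed by -4.63 and -1.93 (mean -3.28 ± 0.60, adjusted p = 0.00637), and ANLN by -3.28 and -2.53 (mean -2.90 ± 0.55, adjusted p = 0.00718). RIVA was the lower line in each of these. The other called members were KIF11, DLGAP5, CCNB1, BUB3, NUF2, TTK, AURKB, CCNB2 and MAD2L1, with means from -3.10 to -1.72.

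By 48 h 7 members had means above 0, none of them called. BIRC5 was higher in both lines, by 0.72 and 1.09 (mean 0.90 ± 0.41, adjusted p = 0.163), as was FOXM1, by 1.00 and 0.61 (mean 0.81 ± 0.50, adjusted p = 0.303), and NUSAP1, by 0.25 and 0.24. CDC20, AURKA, SGO1 and CENPA were higher in RIVA (1.43, 1.03, 1.03 and 0.57) and lower in U2932 (-0.41, -0.23, -0.60 and -0.28). In RIVA, CDC20 went from 10.69 at 12 h to 9.60 at 48 h without drug, and from 9.21 to 11.03 with it. AURKA in the same line went from 10.65 to 9.91 without drug and from 8.98 to 10.95 with it. The controls of RIVA were thus lower at 48 h than at 12 h for both genes.

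Between 12 and 48 h no member was called for a change in the effect of the high dose (0 of 49). Among all genes 0.0303% were called lower and 0.126% higher. Member means ran from -1.16 to 1.94, and with 2 lines and 1 residual degree of freedom the test can miss large changes. An unadjusted p under 0.05 was found for 5 members (10.2%) and 10.8% of all genes. The 2 lines went different ways, with a median change of -0.07 in RIVA and 0.61 in U2932. In U2932, BUB1B stood at 8.52 at 12 h and at 9.52 at 48 h under the drug, and in RIVA at 7.52 and 7.42. The difference between these 2 lines was not tested.

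At 0.00061 µg/mL no member was called at 2, 12 or 48 h or over all times together, and 0% of all genes were called in either direction. Counts at an unadjusted p under 0.05 were 2, 4 and 19 of 49 at the 3 times, against 4.09%, 7.49% and 7.41% of all genes. At 48 h 44 of 49 members lay above 0, with a median of 0.09 and line medians of 0.14 in OCI-Ly7, 0.10 in RIVA and 0.05 in U2932. MAD2L1 differed by 0.39, 0.26 and 0.06 in these lines (mean 0.23 ± 0.05, adjusted p = 0.378) and CDC20 by 0.26, 0.25 and 0.17 (mean 0.23 ± 0.05, adjusted p = 0.378). When U2932 was left out, 7 members were called, in a fit of OCI-Ly7 and RIVA alone. The share of all genes called in that fit is not given here, so this count is not a result about the members. The controls at 48 h are the same arrays in which CCNB1 and CDC20 stood low in OCI-Ly7 and RIVA, and against the mean of the untreated arrays at 0, 2 and 12 h the median was 0.01.

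Other lists of the pathway were read at 12 h of the high dose against the same background, 14.7% of all genes called lower and 18.2% higher. Of 67 further mitotic genes measured, 29 fell, 2 rose and 36 were not called (median -0.81). SPC25 (-3.28 ± 0.23) and CENPI (-3.01 ± 0.33), kinetochore proteins, and KIF18B (-2.23 ± 0.26) had the smallest p among those that fell. CKS1B, a small CDK-binding protein (0.86 ± 0.14, adjusted p = 0.00567), and CDCA5, sororin (0.82 ± 0.26, adjusted p = 0.0454), rose. CENPQ followed at 0.76 ± 0.33 without passing (adjusted p = 0.103).

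Of 16 subunits and partners of the anaphase-promoting complex 5 fell and 0 rose (median -0.34), led by CDC16 (-2.08 ± 0.30), UBE2S (-2.55 ± 0.39) and ANAPC10 (-1.66 ± 0.29). The highest were ANAPC15 (0.81 ± 0.27, adjusted p = 0.0505), ANAPC2 (0.54 ± 0.21, adjusted p = 0.0786) and FZR1 (0.34 ± 0.22, adjusted p = 0.242), none of them called. Among the 16 factors of the MuvB, E2F and NF-Y complexes 7 fell and 0 rose (median -0.45). RBL1, the pocket protein p107 (-3.49 ± 0.22, adjusted p = 5.64e-04), E2F5 (-2.64 ± 0.40) and TFDP2 (-1.29 ± 0.22) had the smallest p. E2F4 (0.51 ± 0.21, adjusted p = 0.0829), LIN37 (0.40 ± 0.38, adjusted p = 0.401) and RBBP4 (0.10 ± 0.11, adjusted p = 0.485) lay above 0.

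Of 9 genes of the arm that stops cells in G2, 3 fell and 0 rose, namely the kinases CHEK2 (-2.21 ± 0.24), CHEK1 (-0.98 ± 0.25) and ATR (-0.59 ± 0.19). PLK2 (2.25 ± 1.01, adjusted p = 0.109) and GADD45A (1.09 ± 0.73, adjusted p = 0.25) varied widely by line, with up to 6.58 and 5.00 in single lines. Of 43 genes of G1/S and replication, listed for contrast, 12 fell, 4 rose and 27 were not called (median -0.40). RFC3 (-2.79 ± 0.36), GINS1 (-1.33 ± 0.23) and SLBP (-2.29 ± 0.39) fell, and GINS4 (1.30 ± 0.26), thymidine kinase TK1 (1.08 ± 0.28) and CCND2 (0.75 ± 0.20) rose. CHR matches were present in 59.6% of the further mitotic genes and 15.8% of the G1/S genes with a window.

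Likeness to the members' mean was read over the 49 arrays after each line's own mean was subtracted, so it describes movement within lines. The genes outside the list with the highest r were MELK, a kinase (r = 0.985), GPSM2, a spindle orientation protein (r = 0.981), and KNSTRN, a kinetochore protein (r = 0.974). Genes with other roles followed at nearly the same r, among them LYSET (0.971), PET117 (0.970) and MTPAP (0.969), so the likeness is not particular to genes of cell division. The gene span in the genome ranged from 4.2 to 130.8 kb over the members. Its rank correlation with the difference at 12 h was -0.27 over the members and -0.21 over all genes, a description over genes that share arrays. For 21 of the 27 members with several probe sets, the probe sets all had the same sign at 12 h.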

How the data were processed

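RNA of 49 arrays (54675 probe sets) was measured. The deposited values are log2 intensities, made by the authors; the submitters' processing notes name RMA, affy and R 3.0.2, and RMA scales arrays to a common distribution, so differences are relative to the other genes. Medians per array ran from 4.84 to 5.04. Arrays give no counts, and their number limits the precision. Probe sets annotated to 1 gene (41097) gave 19775 genes, each by its brightest probe set.

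Each comparison was fitted with limma 3.58.1 (R 4.3.3), with the line as a block and variances that follow the level, and p-values were adjusted by Benjamini-Hochberg over the 19775 genes (called below 0.05). Changes between times were tested on each line's difference of differences. The pairing comes from the cell line: deviations of the paired arrays correlated with r from 0.93 to 0.96 at 2 h and 0.56 to 0.77 at 12 h. The fit was tested on simulated data. Figures used matplotlib 3.10.9, tables pandas 2.3.3.

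The members and gene lists were chosen with earlier results of these data known. All members are named. Given in full were members called at 2 h, at 12 h the 2 with the smallest p in each role and those opposite in sign to it, at 48 h the 5 with the smallest p and those not lower in both lines; from other lists, the 3 with the smallest p in each direction at 12 h. Alternatives were the variance trend, the scaling, the probe set rule, the control, the block, a joint fit and leaving out each line.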

Additional observations from a re-analysis of the deposited data

Results flagged for a closer look

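Single lines stood apart from the rest for 13 of the 98 gene and time combinations examined. The combinations were the 49 genes at 2 h and 12 h of the high dose. Chance alone flags about 1 in 20 groups. The genes of a line share arrays, so the flags are not independent and their count cannot be set against that rate. At 2 h, U2932 was above the other lines for CENPF (0.16, others -0.14 to -0.04) and SGO1 (0.21, others -0.31 to -0.12), and NU-DHL-1 for SMC4 (0.11, others -0.13 to -0.06). At 12 h, FARAGE was below the others for KIF23 (-4.46), KIF2C (-1.98) and CENPF (-2.92, others -1.45 to -1.30). The treated level of KIF23 in FARAGE was under the array medians, so the size of that difference is uncertain. At 12 h NU-DHL-1 was the line apart for 7 genes, and its untreated control was lower than at 0 h for 48 of 49 members. NU-DHL-1 lay nearer to 0 for CCNB1 (-0.84, others -3.16 to -2.51), CCNB2 (-1.05) and HMMR (-0.30). It lay above 0 where the others were below for NUSAP1 (1.20), PTTG1 (0.65) and SMC4 (0.12), and below the others for BIRC5 (-1.04).

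The effect of the high dose was lower at 12 h than at 2 h for 35 members, by limma on each line's difference of differences. Among all genes 12.6% were called lower. Some members called at 2 h were flagged for this change. It was -2.66 for ANLN, -3.57 for BUB1B, -3.66 for KIF11, -2.41 for KIF15, -1.88 for KIF18A, -1.77 for KIF20A, -2.501 for KIF23 and -2.10 for NDC80. CENPA, also called lower at 2 h, and CDK1, called higher then, were not flagged.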

How the results depend on the processing

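At 12 h of the high dose the count of called members was 24 (no replicate block) to 49 (poly-A scaling) over the alternatives (35 as reported) and 29 to 39 when 1 line was left out; the 35 called members kept their sign in each of the alternatives run. At 2 h (9 lower as reported) the count was 40 with arrays scaled to poly-A controls, which called 6513 of all 19775 genes lower and where CDK1 reversed to -0.16, and 0 without the line as a replicate block and in the joint fit of all arrays. At 48 h of the high dose (14) it was 0 without the variance trend or the block, 22 with arrays centred on their medians, 26 and 49 with hybridization and poly-A scaling (5294 and 19007 of all genes lower) and 35 in the joint fit; leaving out a line there leaves no test. Against the low dose at 12 h (36) it was 23 without the block. With poly-A scaling 23 members were called at the low dose at 12 h (3815 of all genes higher) and 23 for the change from 12 to 48 h (17108 of all genes lower), whose median was -0.067 without U2932 and 0.608 without RIVA. At the low dose at 48 h, leaving out a line gave 0 to 7. In untreated cells the single call at 2 h became 0 without the trend, with mean probe sets, without the block and in the joint fit, 3 with poly-A scaling (median 0.18) and 0 to 1 with a line left out. The single call at 12 h became 0 without the trend, with centring, hybridization scaling (median -0.041), mean probe sets, no block, the joint fit or any line left out (medians from -0.047 to 0.106), and 5 with poly-A scaling. At 48 h the 0 became 10 with poly-A scaling, 4 in the joint fit and 0 to 3 with a line left out. The number of all genes called moved with the setting too, at 2 h of the high dose from 0 lower without the block to 6513 with poly-A scaling. Where a count of members stands without that of all genes, it is not a result about the members. The causes were not tested.

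Without the pairing by line, 0 of the 10 members called at 2 h of the high dose stayed called. At 12 h 24 of 35 did, and at 48 h 0 of 14. The precision is limited by 1 array per line, dose and time, and by 2 lines at 48 h of the high dose.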
